A study of Mus musculus with 39 samples.

Results

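Cluster 6 is a set of 2241 genomic regions out of 20811 consensus peaks of Notch and RBPJ binding in the embryonic mouse cortex, 10.8% of them. Its members were clustered from averaged binding intensities by k-means, and were taken here as all consensus peaks to which the deposited file gives the number 6. The measurement was Targeted DamID (TaDa), in which a Dam methylase fused to a protein marks GATC sites near the places where the protein sits on chromatin. The data came from wild-type MF1 mouse embryos that were electroporated in utero at E13.5 and dissected at E14.5.

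In radial glial cells (RGCs) the fusions were driven by the Hes5 promoter. There were 3 samples with human RBPJ1 and 4 with mouse Notch, of which 2 carried NICD, the intracellular domain, and 2 carried NdECD, which keeps the transmembrane domain but lacks the extracellular domain. In intermediate progenitor cells (IPCs) the fusions were driven by the Tα1 promoter. There were 3 samples with human RBPJ1 and 4 with mouse NICD. The controls were Dam alone under the same promoters, in 5 RGC samples and 4 IPC samples, and both lists of a cell type rest on the same controls. The electroporated cortex was dissected without sorting cells, so the promoter alone sets the cell type, and the files hold no expression against which it could be checked. All fusions were expressed from plasmids at low level, on top of the endogenous proteins, and the Notch forms are active without a ligand. The Notch binding recorded in IPCs is therefore binding of supplied NICD.

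RGCs are the neural stem cells of the developing cortex, and they divide to give IPCs, which in turn give neurons. When a Notch receptor is activated its intracellular domain moves to the nucleus and joins RBPJ on DNA, where the pair activates genes such as Hes1 and Hes5, whose products repress differentiation. RBPJ binds DNA through the word TTCCCA, and without Notch it can act as a repressor together with corepressors. In TaDa the resolution is set by the spacing of GATC sites, so the middle of a region is not a summit of binding.

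The words that RBPJ recognises are shown first for the few members that hold a head-to-head pair, TGGGAA followed after 15 to 17 bases by TTCCCA. This spacing is known from promoters on which a pair of complexes of NICD and RBPJ sits side by side. Only 3 of the 2241 members (0.134%) held such a pair, against 48 of all consensus peaks (0.231%). Sequence is that of the reference genome (mm10, GRCm38), plus strand, in lower case with TTCCCA or its reverse complement TGGGAA in capitals. The member near Sema6d (chr2:123532430-123534910) was called in both RGC lists, the member near Ubash3b (chr9:41273377-41275005) in the RGC RBPJ list, and the member near Spata19 (chr9:27437077-27438679) in the IPC Notch list. All 3 windows lay outside exons, and none was within 30 kb of a start site.
Sema6d, chr2:123533692-123533792: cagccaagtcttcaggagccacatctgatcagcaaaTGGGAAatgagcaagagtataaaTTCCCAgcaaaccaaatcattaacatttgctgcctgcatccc
Ubash3b, chr9:41274333-41274432: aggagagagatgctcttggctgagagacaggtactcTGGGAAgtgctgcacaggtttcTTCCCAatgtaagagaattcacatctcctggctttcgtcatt
Spata19, chr9:27438303-27438402: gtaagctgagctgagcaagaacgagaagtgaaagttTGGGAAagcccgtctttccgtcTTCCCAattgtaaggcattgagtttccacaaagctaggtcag

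For 5 genes known for their roles in RGCs, the 120 bases outside exons that held the most TTCCCA words in any of their members are shown as examples of single words without that spacing. The Hes1 window lies in the member 179 kb upstream of the gene, and the Sox2 window in the member 140 kb upstream. The Pax6 window lies in an intron of the gene and the Gli3 window just upstream of its gene, both in members that cover a start site. The Sox9 window lies 582 kb upstream. The words numbered 3 in the windows of Hes1 and Pax6, 2 in those of Sox2 and Sox9, and 1 in that of Gli3.
Hes1, chr16:29881720-29881839: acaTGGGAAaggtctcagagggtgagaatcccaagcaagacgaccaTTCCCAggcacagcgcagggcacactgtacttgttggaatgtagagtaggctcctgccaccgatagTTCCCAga
Sox2, chr3:34507965-34508084: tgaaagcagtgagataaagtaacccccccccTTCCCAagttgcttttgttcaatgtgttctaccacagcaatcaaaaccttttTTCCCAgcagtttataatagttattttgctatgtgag
Pax6, chr2:105677934-105678053: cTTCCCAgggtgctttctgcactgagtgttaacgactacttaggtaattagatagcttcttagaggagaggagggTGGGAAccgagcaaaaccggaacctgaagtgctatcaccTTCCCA
Sox9, chr11:112198837-112198956: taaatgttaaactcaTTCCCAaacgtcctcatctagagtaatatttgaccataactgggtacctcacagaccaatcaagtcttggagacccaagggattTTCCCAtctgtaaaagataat
Gli3, chr13:15461665-15461784: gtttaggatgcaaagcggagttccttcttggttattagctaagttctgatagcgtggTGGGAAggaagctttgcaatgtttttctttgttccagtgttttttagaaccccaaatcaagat

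Across the members, RBPJ words were about as common as in consensus peaks at large. Of the 2224 members of at least 300 bp, 29.0% (Wilson 95% interval 27.2 to 30.9) held TTCCCA on either strand in the central 300 bp, against 29.7% of 20482 consensus peaks. In cluster 2 the share was 34.2% and in cluster 7 it was 35.3%. These intervals cover counting error over regions only, here and below. The longer word TTCCCAC, which contains TTCCCA, was in 7.42% of the members' windows and in 7.97% of all windows. Over their whole length the members held 1.09 TTCCCA words per kb, and all consensus peaks held 1.17. Because the members are long, 84.0% held at least 1 such word somewhere.

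Other transcription factor words differed from the background by at most 3 percentage points. The word TTGGCA, read by nuclear factor I, was in 19.5% (17.9 to 21.2) of the members' windows and 16.7% of all windows. TAATTA, a homeodomain core read by LHX2 among others, was in 11.2% and 10.04%. CATCTG, an E-box of proneural factors, was in 18.5% and 20.9%. The words for SOX factors (ACAAAG, 24.5% and 24.6%), for TEAD factors (ACATTCC, 4.77% and 4.60%) and for HES repressors (CACGTG, 4.002% and 4.16%) were near the background. All words were searched on both strands, and a match is a run of letters, not a measured site. The median GC content of the members was 46.1%, against 45.3% over all consensus peaks.

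The members were called most often in the lists of RGC RBPJ and of IPC Notch. RBPJ peaks of RGCs lay in 1439 members (64.2%), with 67.6% of all consensus peaks as the background. IPC Notch peaks lay in 1083 members (48.3%), with a background of 10.1%. RGC Notch peaks lay in 442 members (19.7%; background 17.7%). IPC RBPJ peaks lay in 246 members (10.98%; background 26.2%). The clusters were made from binding intensities of the same experiments, so these shares describe the members and were not tested. The file holds no intensities, and k-means has no threshold, so members near the edge of the cluster could not be singled out.

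**Figure D1:**
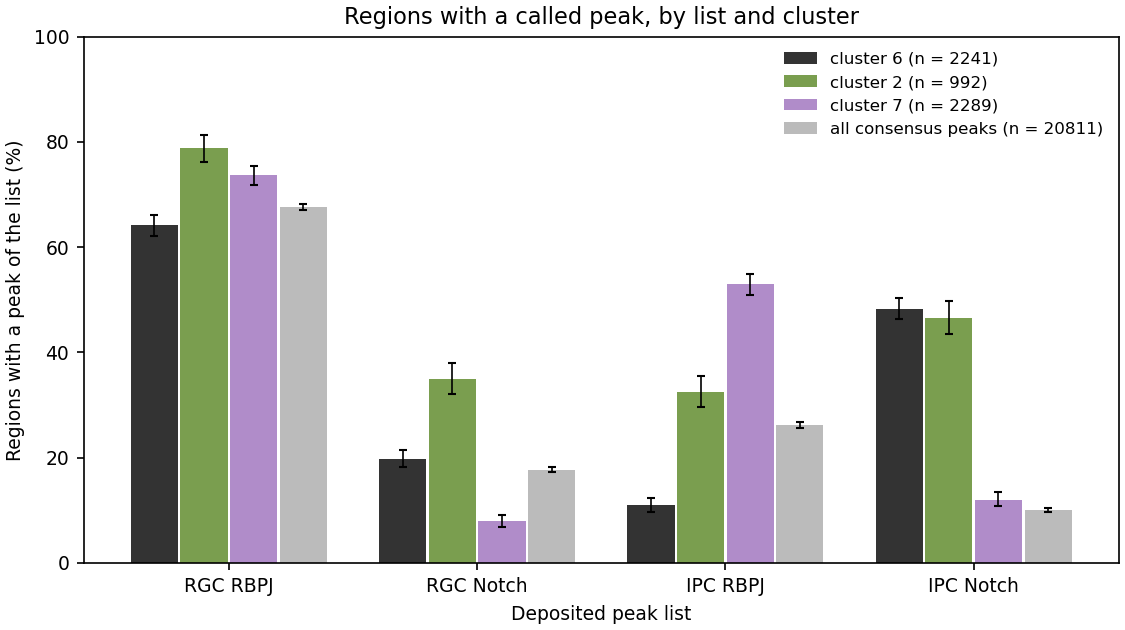
Percentage of regions (y axis) that contain a peak of each deposited list (x axis), for cluster 6, clusters 2 and 7 and all consensus peaks; error bars are Wilson 95% intervals over regions. Cluster 6 stands at 48.3% for IPC Notch and 10.98% for IPC RBPJ, against 10.1% and 26.2% for all consensus peaks.

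Seen from the lists, cluster 6 held 51.5% (49.4 to 53.7) of all 2101 consensus peaks with an IPC Notch peak. It held 10.2% of those with an RGC RBPJ peak, 11.98% of those with an RGC Notch peak and 4.51% of those with an IPC RBPJ peak. Cluster 2 was close to cluster 6 in its share of IPC Notch peaks, at 46.6%, but 32.5% of its regions had an IPC RBPJ peak. Cluster 7 had the opposite makeup, with IPC RBPJ peaks in 53.0% and IPC Notch peaks in 12.01% of its regions.

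Most members were called in a single list, 1509 of 2241 (67.3%), with a background of 82.9%. The largest kinds were 820 members with an RGC RBPJ peak alone (36.6%) and 546 with an IPC Notch peak alone (24.4%). Among all 20811 consensus peaks these kinds numbered 10833 and 739, so RGC RBPJ alone was less common in members than at large. A further 272 members had peaks of these 2 lists and of no other, out of 532 such consensus peaks. Only 37 members had an IPC RBPJ peak alone and 106 an RGC Notch peak alone, out of 3810 and 1872 such consensus peaks. Members called in both cell types numbered 598 (26.7%; background 11.5%), and 36 were called in all 4 lists (1.61%; background 0.678%).

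**Figure D2:**
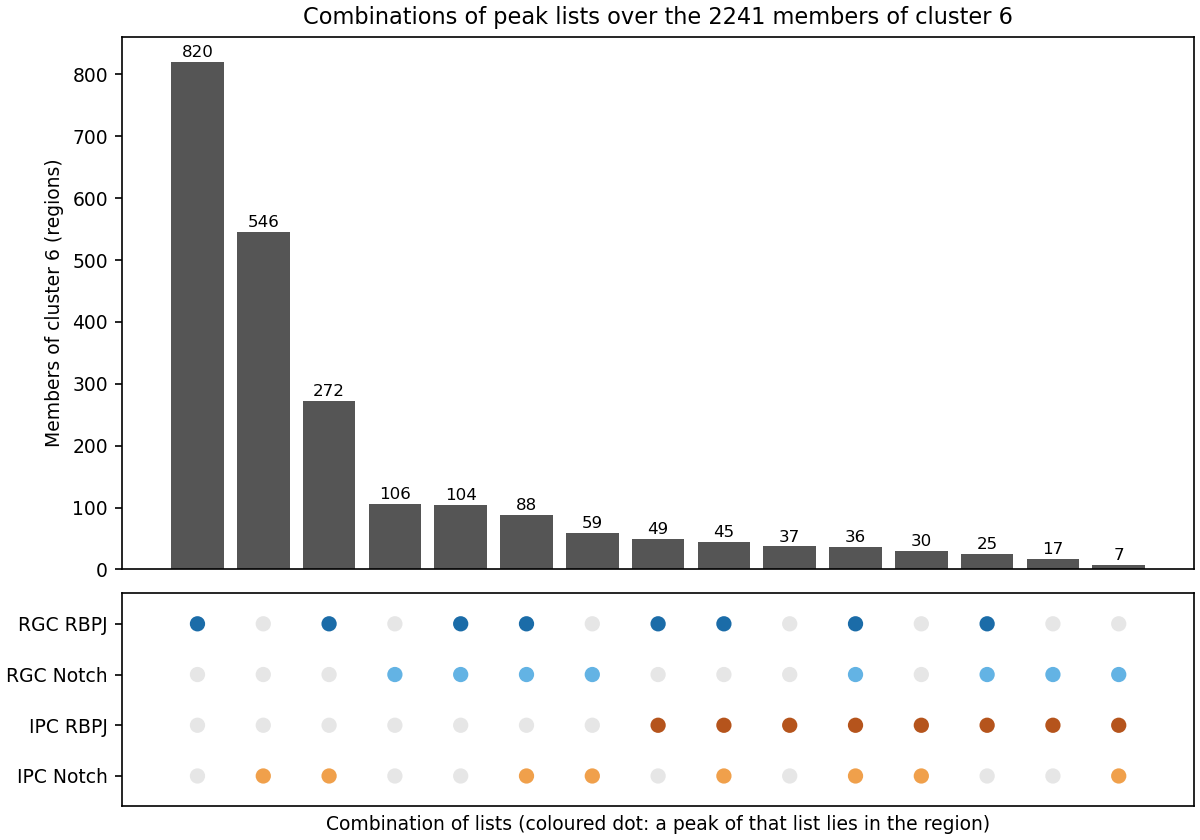
Number of members of cluster 6 (bars, y axis) with each combination of the 4 peak lists, marked by the coloured dots under each bar. The 820 members with an RGC RBPJ peak alone and the 546 with an IPC Notch peak alone are the 2 tallest bars.

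The IPC Notch peaks without any other call were mostly in cluster 6. Of 739 consensus peaks of that kind in the genome, 546 (73.9%) were members. Of the 532 with peaks of RGC RBPJ and IPC Notch alone, 272 (51.1%) were members. Of the 10833 with an RGC RBPJ peak alone, 820 (7.57%) were members. These shares restate the clustering at the level of peak calls.

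Most members called for Notch in IPCs alone lay more than 10 kb from an RGC RBPJ peak. Their median distance to the nearest consensus peak with an RBPJ call in RGCs was 28.5 kb (order-statistic interval 25.6 to 32.7), and 135 of 546 (24.7%) lay within 10 kb of such a peak. To the nearest RGC Notch call the median was 142 kb. For the 820 members with RGC RBPJ alone, the nearest IPC Notch call was 201 kb away in the median, and the IPC Notch list is the shorter of the lists compared. Members of either kind lack a call of the other cell type by selection. The same distances were not computed for other consensus peaks, so whether these are unusual cannot be read.

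Where peaks of both cell types fell in the same member, their midpoints and widths were compared. In 439 of the 441 members with peaks of both RGC RBPJ and IPC Notch, the peaks overlapped, and their midpoints were 573.5 bp apart in the median. The RGC RBPJ peak was the wider in 383 of these 441 members, by 2.01-fold in the median. Consensus peaks are merged from overlapping peaks, so peaks of both lists share a member only by overlapping directly or through other peaks. The overlap is therefore set by the way the regions were made and is no result about binding.

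The members were wide for consensus peaks. Their median width was 2309 bp (2233 to 2381), against 1890 bp over all consensus peaks, and they ranged from 213 to 14692 bp. In all they covered 6.05 Mb. Width followed the lists. Members with an IPC Notch peak alone had a median of 1184.5 bp, those with an RGC RBPJ peak alone 2375.5 bp, and those called in all 4 lists 4752.5 bp. A merged region grows with the number of peaks merged, so the width of members called in all 4 lists is in part set by the merging. The difference between the kinds called in a single list was not tested.

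The 8 widest members lay at genes with known roles in progenitors and at genes without such a role. The widest of all, 14692 bp (chr2:105663397-105678088), covered a start site of Pax6, which encodes a homeodomain factor of RGCs. It was followed by a member of 14265 bp inside Prdm16, a zinc finger factor of RGCs, and by a member of 14115 bp over a start site of Notch1, the receptor itself. The others were nearest to Tfap2c, Egln3, Elmsan1, Zfhx4 and Auts2. TTCCCA words numbered 19 in the Pax6 member, 18 in the Prdm16 member and 24 in the Notch1 member.

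GATC sites were present in nearly all members. There were 2.77 of them per kb in members and 2.91 per kb in all consensus peaks. A GATC site was missing from 54 members (2.41%), and from 9.76% of all consensus peaks. Of these 54 members, 39 had an IPC Notch peak alone and 8 an RGC RBPJ peak alone. The part of fragment size in the widths was not tested.

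Members were linked to genes by the nearest start site of any protein-coding gene. The median distance was 18.5 kb (16.2 to 21.2), against 21.1 kb over all consensus peaks, 25.8 kb in cluster 2 and 8.58 kb in cluster 7. A start site lay inside 476 members (21.2%; 19.6 to 23.0), against 16.6% of all consensus peaks and 29.7% of cluster 7. A further share lay near one, so that 34.7% of members were within 5 kb of a start site. At the other end 21.2% were beyond 100 kb, and 1.92% beyond 500 kb.

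The kinds of members differed in where they lay. Of the 820 with RGC RBPJ alone, 27.4% (24.5 to 30.6) covered a start site, and their median distance was 14.1 kb. Of the 546 with IPC Notch alone, 13.2% (10.6 to 16.3) did, at a median distance of 21.1 kb, and these members were also narrower, a difference whose part in this was not tested. The 36 members called in all 4 lists lay farthest out, at a median of 65.2 kb.

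**Figure D3:**
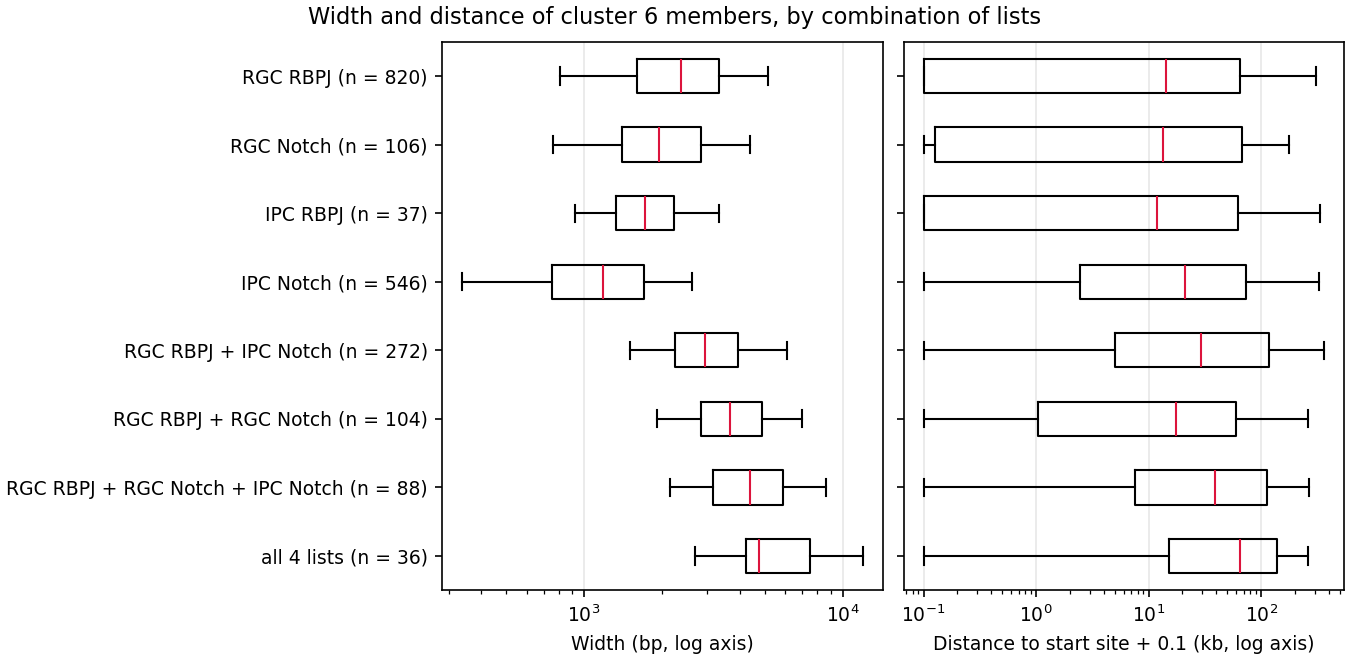
Width in bp (left) and distance to the nearest start site in kb with 0.1 kb added (right), both on log axes, of members grouped by combination of lists; boxes are quartiles with the median in red, and whiskers run from the 5th to the 95th percentile. The median width is 1184.5 bp for IPC Notch alone and 4752.5 bp for all 4 lists.

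By midpoint, 48.6% of members lay in introns of protein-coding genes, 8.48% in exons, and 36.2% in intergenic sequence, outside genes and their 5 kb upstream. The shares over all consensus peaks were 47.3%, 8.06% and 38.7%. Of the members inside a gene, 7.58% lay in a gene other than that of the nearest start site. A member of Pax6 is an example. It lies 27.1 kb downstream of a Pax6 start site, inside Elp4, the neighbouring gene whose introns are known to hold distant enhancers of Pax6, and it was called for Notch in IPCs alone. The members that lay farthest from any start site were nearest to Efna5 (1846 kb), Aga (1747 kb), Hace1 (1688 kb), Got2 (975 kb) and Cdh2 (958 kb).

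The members were assigned to 1671 genes. Of these, 1333 had 1 member and 338 had 2 or more, and the latter together held 908 members. Among the 338 genes, 268 had calls of both cell types over their members. The members of 689 genes were called in RGC lists alone, and those of 393 genes in IPC lists alone. A gene with more members has more regions in which calls of both cell types can fall. Matching counts over the genes of all consensus peaks were not made, so these counts only describe the members.

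The genes with the most members encode regulators of neural development, along with genes of other functions. Pou3f3, a POU-domain factor, and Epha4, an ephrin receptor, each had 9. Tle3, a Groucho corepressor that works with HES proteins, Msi2, an RNA-binding protein of stem cells, and Sox2, a stem cell factor of RGCs, each had 8. Meis2, Stox2, Zfp608, Sorl1, Auts2, Creb5 and Celf2 followed with 7. Dennd1a also had 7, and is set behind Celf2 by its summed width. Such genes also had many consensus peaks of other clusters, with 29 in all at Pou3f3, 39 at Epha4 and 47 at Auts2.

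**Figure D4:**
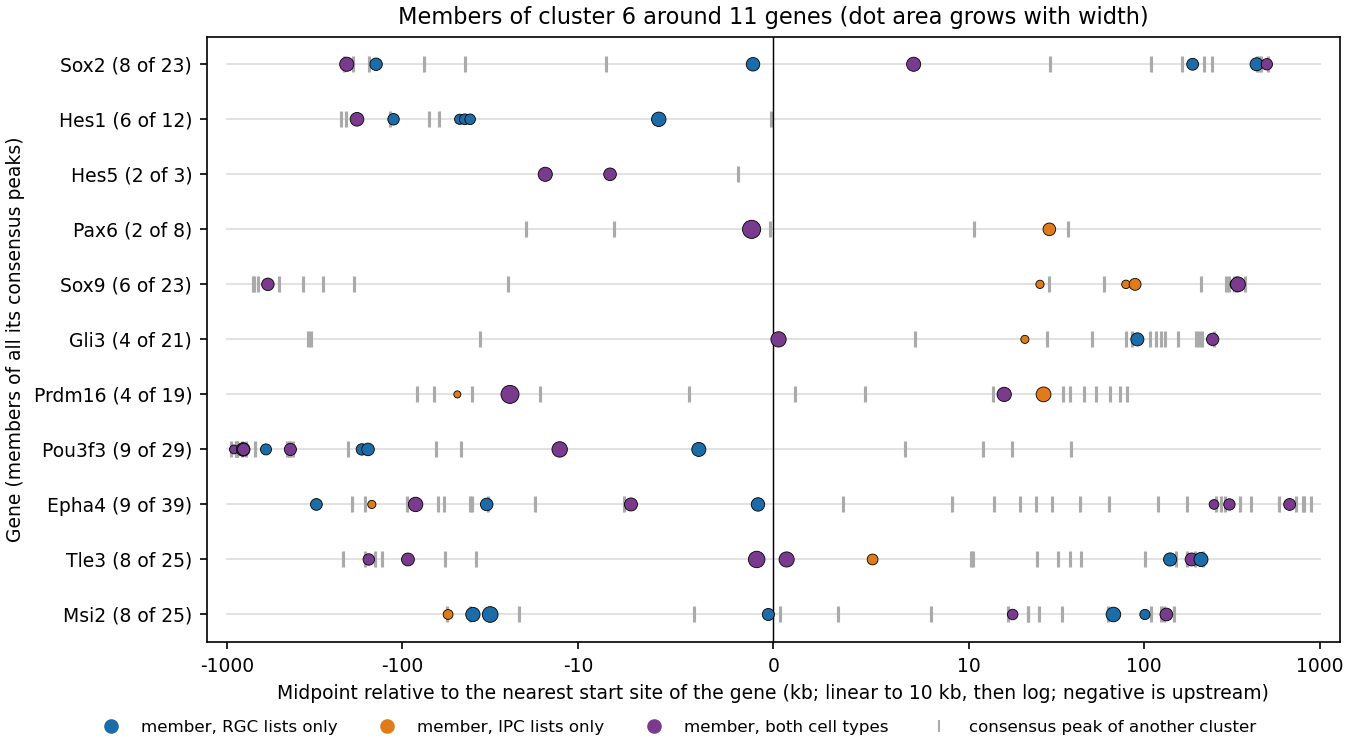
Midpoints of consensus peaks relative to the nearest start site of 11 genes (x axis, kb, linear to 10 kb and then logarithmic, negative is upstream); circles are members of cluster 6, coloured by cell type of the calls and larger where wider, and grey ticks are consensus peaks of other clusters. All members at Sox9 were called in IPCs, and all at Hes1 lay upstream of the gene. The grey ticks at Sox9 include peaks called in RGCs.

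Around Sox2 (chr3:34650405-34652461), all 8 members were called for RBPJ in RGCs. The member over the gene, of 4530 bp (chr3:34647096-34651625), had that call alone. Of the other 7, those 205 kb and 140 kb upstream were called for RBPJ in both cell types and in RGCs alone, respectively. The member 4.51 kb downstream of the start site and the member 497 kb downstream also had an IPC Notch call. The member 187 kb downstream was the only Sox2 member with an RGC Notch call.

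At Hes1 (chr16:30064384-30067796), the main effector of Notch in RGCs, all 6 members lay upstream and all were called for RBPJ in RGCs. The nearest, of 5866 bp, ended 2.94 kb before the start site. Of its other members, 3 were packed between 40.4 and 46.6 kb upstream, and 1 lay 111 kb upstream. Those 5 had no other call. The member 179 kb upstream was also called for RBPJ and Notch in IPCs. The consensus peak on the Hes1 start site itself, called in all 4 lists, was in cluster 2.

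Hes5, another HES repressor, had 2 members, 6.64 and 12.7 kb upstream, and the consensus peak on its start site was likewise in cluster 2. The nearer member had peaks of all lists but IPC Notch, and the farther had peaks of all lists but RGC RBPJ. The RGC plasmids carry a Hes5 promoter, and its part in calls at Hes5 was not tested.

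Sox9 (chr11:112782224-112787760), a factor of neural stem cells, had 6 members and all were called for Notch in IPCs. The 4 members at 25.2, 78.3, 87.3 and 328 kb downstream had that call alone. The members 582 kb upstream and 338 kb downstream were also called for RBPJ in RGCs. IPC Notch peaks lay in 48.3% of all members and 10.1% of all consensus peaks. None of the 6 had an RGC Notch call, but consensus peaks of other clusters at Sox9 did. Among these were peaks centred 322.6 and 335.9 kb downstream, close to members. At Hes1 and Sox2 every member had an RGC RBPJ call, as had 64.2% of all members and 67.6% of all consensus peaks. Every consensus peak of other clusters at Hes1 had that call too, as had most of those at Sox2. The call is therefore not particular to the members there.

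Gli3, the repressor-type effector of Hedgehog signalling, had 4 members. The member of 7355 bp on its start site was called in all 4 lists. Those 20.6, 89.3 and 244 kb downstream, all inside the gene, were called for IPC Notch alone, for RGC RBPJ alone and for both of these, respectively. Prdm16 also had 4 members, all inside the gene and all with an IPC Notch call, which 48.3% of all members had. The shortest of them measured 336 bp and the longest 14265 bp. The consensus peak of Prdm16 that covered a start site (chr4:154520599-154534720) lay inside the gene, not at its 5' end, and was in cluster 5.

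All 36 members called in every list are named here by their nearest gene. They include transcription factors and cofactors (Pou3f3, Tfap2c, Zfhx4, Hey1, Sall1, Tox3, Tle3, Gli3, Vgll4, Zfp608, Epc1), of which HEY1 is a repressor downstream of Notch. They also include Sema6d, Gfra1, Ptgfrn, Ezr, Nid2, Olfm4, Cpb2, Map1b, Kif13b, Myo3a, Tanc1, Ralgps2, Cacna2d1, Auts2, Klhl25, Pdcd5, Cryzl2, Gca, Tmem161b, Prrc1, Slc14a2, 2810459M11Rik, E130114P18Rik, Gm26897 and Gm11146. The Hey1 member, of 4529 bp, lay 49.5 kb from the start site. The nearest gene is not always the host, as the Gca member lies inside Kcnh7 and the Prrc1 member inside Megf10, a receptor of glia.

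The members were dispersed along the genome. The median gap from a member to the nearest other member was 172 kb (158 to 183), and 182 members (8.12%) had another within 10 kb. To the nearest consensus peak of any cluster the median gap was 17.0 kb, against 25.8 kb over all consensus peaks, 15.5 kb in cluster 2 and 19.5 kb in cluster 7. The nearest consensus peak was itself a member for 13.7% (12.3 to 15.1) of members, while 11.2% of all consensus peaks had a member as their nearest neighbour. The neighbours were most often in cluster 5, at 22.4%, which is the largest cluster and gave 22.3% of the neighbours of all consensus peaks. Members lay on 20 chromosomes, and their share of the consensus peaks ranged from 9.31% on chromosome 3 to 12.8% on chromosome 19.

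When members with gaps of at most 50 kb were joined, 252 groups of 2 or more arose, with 571 members. Most were pairs (200 groups), and 39 held 3 members, 11 held 4 and 2 held 5. The other 1670 members stood alone. A group of 5 lay at Boc, a Hedgehog co-receptor, and its neighbour Cfap44 (chr16:44483765-44561146). Its members were called for RGC RBPJ (3), RGC Notch (2) and IPC RBPJ (1), and none for IPC Notch.

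The other group of 5 lay inside Creb5, which encodes a bZIP factor (chr6:53612344-53697384). It had the contrary makeup, with 4 members called for Notch in IPCs alone and 1 for RBPJ in RGCs alone. The groups next in order held 4 members each, at Sox9 and Slc39a11, Stox2, and Map1b. The Sox9 group lies from 328 kb downstream of that gene and had 2 members with an IPC Notch call. The Stox2 group was covered by members over 37.7% of its 55.4 kb. All its members were called for RBPJ in RGCs, as were 64.2% of all members and 67.6% of all consensus peaks.

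By the gene lists used here, the label of the cluster, near radial-glia genes, describes a minority of its members. From a list of 32 RGC markers, 22 were the nearest gene of a member, and these accounted for 55 members (2.45%). Of the 130 genes in the study's table of RGC genes with such peaks, 129 were the nearest gene of 222 members (9.91%), but the table was selected for genes with peaks of this cluster and is no independent evidence. The other 2000 members (89.2%) were nearest to genes on neither list.

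Read the other way, RGC markers had more of their consensus peaks in the cluster than the background of 10.8%. Of the 253 consensus peaks nearest to the 32 markers, 55 (21.7%; 17.1 to 27.2) were members. For IPC markers it was 4 of 32 (12.5%; 4.97 to 28.1), for neuron markers 9 of 72 (12.5%; 6.72 to 22.1), and for markers of other cell types 3 of 35 (8.57%; 2.96 to 22.4). The last 3 intervals include the background and the first does not, but peaks at a gene are not independent and 24 of the 55 lie at Sox2, Hes1, Sox9 and Gli3. Pax6, Hes1, Hes5, Slc1a3, Sox9, Gli3, Prdm16 and other markers of the list are also in the study's table. That table was selected for genes with peaks of this cluster, so the share of RGC markers is no independent evidence. Whether the lists differ from one another was not tested.

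**Figure D5:**
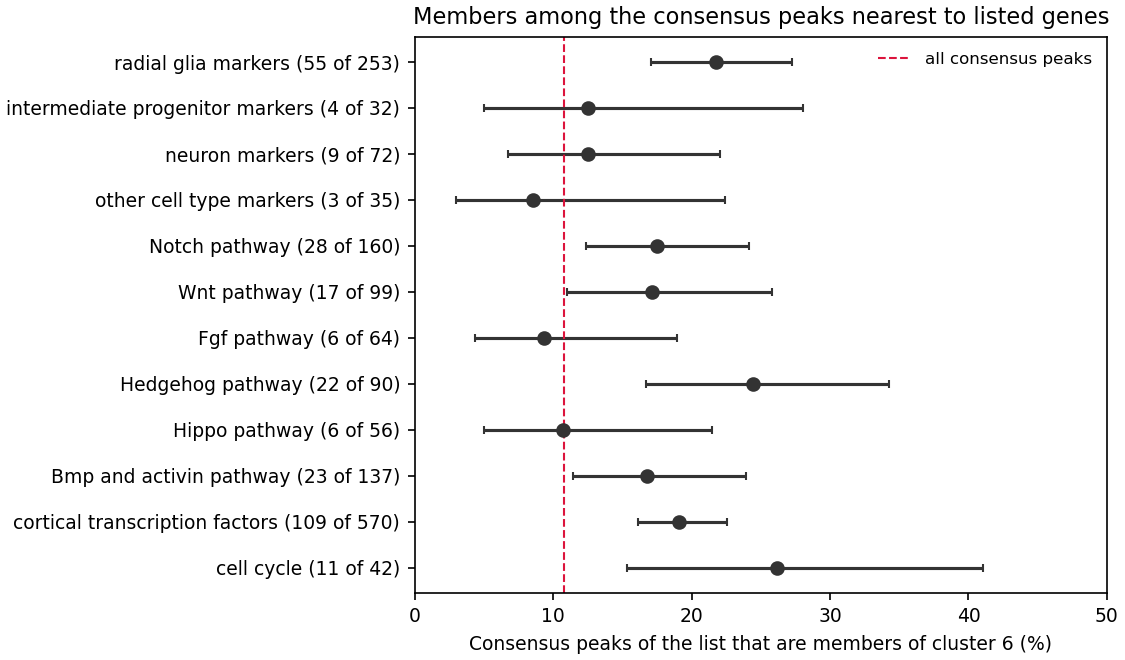
Percentage of the consensus peaks nearest to listed genes that are members of cluster 6 (x axis), for 12 gene lists; bars are Wilson 95% intervals over peaks and the dashed line is the share over all consensus peaks, 10.8%. RGC markers stand at 21.7% and IPC markers at 12.5%. Several lists share genes with the study's table, which was selected for peaks of this cluster.

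Beyond the genes above, the RGC markers with members were Cdh2, Id4 and Slc1a3 with 3 each, Lhx2 and Notch1 with 2, and Aldoc, Dbi, Ednrb, Emx2, Fgfr2, Fgfr3, Hopx, Notch2, Ptprz1 and Veph1 with 1. Slc1a3, the glutamate transporter of glia, had members inside the gene, 5.20 and 10.8 kb from a start site, and another 74.9 kb away. Markers without a member were Nes, Vim, Fabp7, Tnc, Notch3, Ddah1, Pea15a, Ttyh1, Mfge8 and Prom1, all of which had consensus peaks of other clusters. Among IPC markers, Dll1, a Notch ligand, had 2 members, 1 on its start site and 1 at 2.64 kb. Both were called for RBPJ in RGCs, and the second also for Notch in RGCs. Btg2 and Gadd45g had 1 each. Of the 9 members near neuron markers, 5 were at Sox5.

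In the Notch pathway, 28 of 160 consensus peaks were members (interval of the share 12.4 to 24.1%), at 10 genes. Corepressors came first, with 8 members at Tle3, 3 at Tle4 and 2 at Tle1. The effectors Hes1 and Hes5 had 6 and 2, and Hey1 had 1. The receptors Notch1 and Notch2 had 2 and 1, the ligand Dll1 had 2, and the coactivator Maml2 had 1. At Tle3, 6 of the 8 members had an RGC RBPJ call and 6 an IPC Notch call. The 3 members of Tle4 all had an IPC Notch call and none had a call of RBPJ in RGCs. Of all members, 48.3% had an IPC Notch call and 64.2% an RGC RBPJ call, with 10.1% and 67.6% of all consensus peaks.

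In the Hedgehog pathway the share was 22 of 90 (24.4%; 16.7 to 34.2). The co-receptors Boc and Cdon and the effector Gli3 had 4 members each. Ptch1, the receptor, and Hhip, an inhibitor that binds the ligand, had 3 each, Gli2 had 2, and Gas1 and Sufu had 1. Boc, Cdon, Gli3 and Gas1 are also in the study's table, which was selected for genes with peaks of this cluster. The 4 members of Cdon were spread over 31.4 kb around its start site and filled 50.2% of it. Their calls were RGC Notch, RGC RBPJ with IPC Notch, RGC RBPJ, and IPC Notch.

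Transcription factors of the cortex gave 109 of 570 peaks (19.1%; 16.1 to 22.6), at 38 of 56 genes. Cell cycle genes gave 11 of 42 (26.2%; 15.3 to 41.1), among them Ccnd2, the cyclin D2 gene, with 2 members, 1 on its start site, both called for RBPJ in IPCs alone. Mad2l1, a spindle checkpoint gene, also had 2, but over 100 kb away. Of the cell cycle genes with members, all but Cdkn1b and Cdkn1c are also in the study's table. That table was selected for peaks of this cluster, so the share of cell cycle genes is no independent evidence. Bmp and activin genes gave 23 of 137 (16.8%), with 3 members each at Bmper, Id4 and Inhbb and 2 each at Bmpr1a, Fstl1, Id2 and Inhba. Wnt genes gave 17 of 99 (17.2%), with 3 at Tcf7l2 and 2 each at Fzd9, Tcf7l1 and Wnt7a.

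Fgf and Hippo genes were near the background, with 6 of 64 (9.38%) and 6 of 56 (10.7%). All 6 of the Hippo members had an IPC Notch call, which 48.3% of all members and 10.1% of all consensus peaks had. Of these 6, 2 lay at Fat4, an atypical cadherin of that pathway. The count is small and was not tested. Some genes are on several lists, so the lists overlap. Each list of pathway, transcription factor or cell cycle genes also shares genes with the study's table, so its share is not independent of that selection.

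The 222 members near the genes of the study's table differed little from the others in the share called for RGC RBPJ, and more of them were called for IPC RBPJ and in all 4 lists. IPC Notch peaks lay in 52.3% of them and in 47.9% of the other 2019. RGC RBPJ peaks lay in 64.9% and 64.1%, and IPC RBPJ peaks in 17.6% (13.1 to 23.1) and 10.3%. In all 4 lists, 10 of the 222 were called (4.50%; 2.46 to 8.09), and 26 of the other 2019 (1.29%). These differences were not tested, and the table's genes were selected for having peaks of this cluster. Their median width was 2875.5 bp, against 2281 bp, and their median distance to a start site was 23.1 kb, against 18.02 kb.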

How the data were processed

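The authors aligned the TaDa reads to mm10. Broad peaks were called by MACS2 on each fusion sample against each Dam-only sample, and peaks found in every such comparison of a condition were kept. The authors deposited 4 pooled peak lists and a file of 20811 consensus peaks, merged from the lists, with k-means cluster numbers. The deposited values are positions in bp, with no intensity, score or q-value and 0 columns of single samples, so depth and replicate spread could not be read and nothing was tested. Samples of full-length Notch, of neurons and of Dam alone under a ubiquitous promoter were not used here.

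Positions are printed counted from 1. A list called a region if its peak overlapped it. Start sites and features came from the GENCODE M21 annotation, sequence from GRCm38. Shares carry Wilson intervals and medians order-statistic intervals at 95%, over regions, which are not replicates. Analyses used Python 3.11.15 with pandas 2.3.3, numpy 2.4.6, scipy 1.17.1 and matplotlib 3.10.9, and the procedures were tested on simulated data.

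Members, gene lists and words were chosen with earlier results of these data known. Genes were named by rule: the 12 with most members, listed genes with 2 or more members (at most 5 a list), RGC markers with a member, Sox2, Pax6, Hes1, Hes5, Prdm16, Sox9 and Gli3, and the genes nearest to members in all 4 lists, to the 8 widest and 5 farthest members, and to the 5 largest groups. Names outside it were chosen after their values were seen.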

Additional observations from a re-analysis of the deposited data

How the results depend on the processing

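Counting start sites of all annotated genes, the median distance to a start site fell from 18452 to 7076 bp and the share within 5 kb rose from 34.7% to 45.2%; measured from the midpoint that share was 31.9%. Requiring a list to cover at least 50% of a member raised the share called in 1 list only from 67.3% to 81.0% and lowered the share called for IPC Notch from 48.3% to 35.6%. Among members of at least 1000 bp, 44.7% were called for IPC Notch and 70.3% for RGC RBPJ. Groups held 355 members with gaps of at most 25 kb and 859 with gaps of at most 100 kb, in place of 571. TTCCCA was in 42.4% of central 500 bp windows, and TTCCCAC in 7.42% of the 300 bp windows. The limit of 1000 bp drops narrow members, and members with an IPC Notch peak alone had a median width of 1184.5 bp. What caused these shifts was not tested. The other 13 alternatives, on gene numbers, introns, neighbours, words per kb and RGC marker peaks among others, stayed within the interval or within 1.5 times the value given. Keeping peaks of higher score was not run, as the lists carry no scores, and no replicate could be left out of pooled lists. No paired analysis was possible because the files hold no values of single samples.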
